A study of Mus musculus with 11 samples.

Results

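A group of 7 genes best known from later neurons and glia were followed through the early mouse neural plate and neural tube: Gad1, Tril, Mnx1, Gpm6a, Nefl, Ptprz1 and Ret. They were chosen on these same measurements, either because signal in open neuroepithelium exceeded that in closed neural tube or because signal in open tissue was lower at E9.5 than at E8.5. The array carries 14 probe sets that name 1 of these 7 genes and no other gene, of 34945 such probe sets for 18193 genes in all. Because the values of both regions and of open tissue at both stages chose the genes, those differences are given as descriptions without a test. The difference between the stages in closed tissue did not itself choose the genes, and it was tested. For Gad1, Tril, Mnx1 and Gpm6a, chosen on open against closed tissue, the closed arrays took part in the choice, so that test is not fully independent of it.

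RNA of C57BL/6 embryos was measured on 11 Affymetrix GeneChip mouse arrays: open neuroepithelium at E9.5 (n = 3) and E8.5 (n = 3), and closed neural tube at E9.5 (n = 3) and E8.5 (n = 2). Open tissue lay caudal to the point where the tube was still open, and closed tissue lay rostral to that point, so closure and axial level cannot be told apart in any comparison of the regions. Tissue of all groups was freed in 2.5% pancreatin and 0.5% trypsin, for 8 min at E9.5 and 5 min at E8.5, and kept closely attached notochord. A replicate was a pool of litters (111 embryos over 12 arrays, of which the authors removed 1 closed E8.5 array for quality), and 50 ng of RNA was labelled in a 2-cycle reaction. Values are log2 signal as deposited. The value 4.3, the 40th percentile of all probe sets, served as the filter on low values, and group means below it lie near background. Regions are compared as open minus closed and stages as E9.5 minus E8.5. The standard error (SE) beside a difference comes from a linear model over all 11 arrays, fitted with limma on 13338 genes. A gene was called where its Benjamini-Hochberg adjusted p was under 0.05. In these bulk samples fewer cells of a type and less RNA per cell cannot be told apart.

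At these stages the caudal neural plate holds dividing progenitors that still lengthen the body axis, and neurons form later, after cells leave the cycle. Genes known from mature neurons are therefore studied mainly in older tissue: enzymes of transmitter synthesis, cytoskeletal filaments, membrane proteins of growing neurites, and receptors for survival factors. Several of them also have earlier roles outside neurons. The transcription factor Mnx1, for example, is known from motor neurons and also from the notochord and early endoderm of the embryo.

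The name "high in open plate" held for only part of the group. Mean signal was higher in open than in closed tissue at both stages for Gad1, Tril, Mnx1 and Gpm6a. For Ptprz1 and Ret it was lower in open tissue at both stages, and for Nefl the regions overlapped. Nefl, Ptprz1 and Ret belong to the group through their lower signal at E9.5 in open tissue. In the order of size, the open minus closed differences at E9.5 were 4.33 for Gad1, 3.36 for Tril, 2.25 for Mnx1, 1.41 for Gpm6a, 0.18 for Nefl, -3.08 for Ptprz1 and -3.09 for Ret. By the model 3.38% of all tested genes were called higher and 3.79% lower in open tissue at E8.5. At E9.5, 5.79% were called higher and 2.75% lower. The genes were chosen on these contrasts, so their counts carry no weight against those shares.

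**Figure D1:**
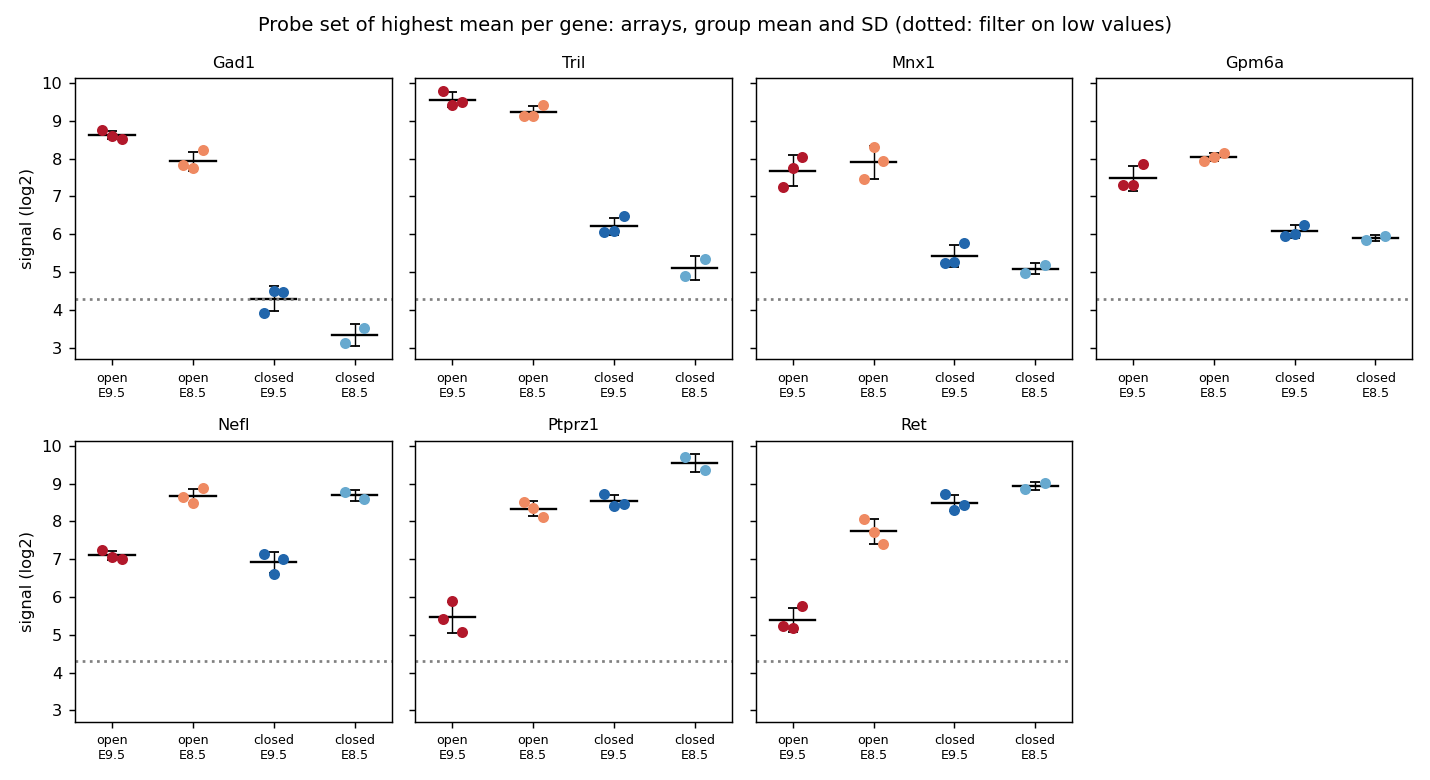
Log2 signal of the probe set of highest mean for each of the 7 genes, with 1 point per array, horizontal lines at the group means, bars of 1 SD and a dotted line at the filter value of 4.3. Gad1, Tril, Mnx1 and Gpm6a lie higher in both open groups, Nefl is lower at E9.5 than at E8.5 in both regions, and Ptprz1 and Ret are lowest in open E9.5 tissue.

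The promoters of Gad1, Tril and Mnx1 are shown because these 3 genes had the largest open minus closed differences of the group. Each is 300 bases of the RefSeq table (build GRCm38.p6), from 250 bases before to 50 bases after the annotated start, read along the gene's strand. The windows are chr2:70561879-70562178 on the plus strand for Gad1, chr6:53820776-53821075 on the minus strand for Tril and chr5:29478421-29478720 on the minus strand for Mnx1. The Gad1 window lies inside the gene span, chr2:70561303-70602014, so its annotated start is not the first base of that span. Capitals mark the letters of a motif that was found.
Gad1: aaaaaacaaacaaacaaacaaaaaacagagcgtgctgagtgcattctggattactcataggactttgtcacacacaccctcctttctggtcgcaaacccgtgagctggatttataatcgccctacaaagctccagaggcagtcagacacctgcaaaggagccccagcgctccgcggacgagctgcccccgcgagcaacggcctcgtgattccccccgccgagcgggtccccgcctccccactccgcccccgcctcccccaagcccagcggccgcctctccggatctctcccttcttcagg
Tril: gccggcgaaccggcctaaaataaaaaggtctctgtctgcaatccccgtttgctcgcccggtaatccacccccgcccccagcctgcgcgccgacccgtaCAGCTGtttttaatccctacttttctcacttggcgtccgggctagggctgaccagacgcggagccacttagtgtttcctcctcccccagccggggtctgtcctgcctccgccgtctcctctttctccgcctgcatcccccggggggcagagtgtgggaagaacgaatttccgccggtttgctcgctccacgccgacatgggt
Mnx1: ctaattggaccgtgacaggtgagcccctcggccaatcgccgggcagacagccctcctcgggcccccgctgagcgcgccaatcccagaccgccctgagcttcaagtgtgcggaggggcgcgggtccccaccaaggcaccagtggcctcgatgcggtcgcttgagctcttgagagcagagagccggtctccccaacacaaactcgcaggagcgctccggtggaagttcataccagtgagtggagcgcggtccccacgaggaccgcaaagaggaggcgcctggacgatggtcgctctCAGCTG
Both strands were searched for 4 short motifs: TTTATG (Cdx factors), CTTTGA (TCF/LEF factors), AGGTCA (a nuclear receptor half-site) and CAGCTG (an E-box, the same on both strands). CAGCTG occurs once in the Tril window and once in the Mnx1 window, and it occurs in 16.3% of all 32851 promoters of the table. The Gad1 window holds none of the 4 motifs. The shares of all promoters with the other motifs are 11.9% for TTTATG, 16% for CTTTGA and 16.3% for AGGTCA, and CTTTGA occurs once in one of the 2 Gpm6a windows. These windows are rich in GC: 60% for Gad1, 62.7% for Tril, 66.3% for Mnx1 and 71.7% for Ptprz1, beside a median of 52.7% over all promoters. They hold 21, 26, 26 and 29 CpG dinucleotides in the same order of genes, beside a median of 7. The 2 Gpm6a windows differ from them, with 47.0% and 36.0% GC and 4 and 6 CpG. Nefl and Ret were not matched in the promoter table.

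Gad1 (chr2:70561303-70602014) encodes the glutamate decarboxylase that makes the transmitter GABA. Its probe set of highest mean read 8.75, 8.59 and 8.53 in open E9.5 tissue and 7.83, 7.74 and 8.22 in open E8.5 tissue. In closed tissue it read 3.92, 4.49 and 4.48 at E9.5 and 3.12 and 3.53 at E8.5. Every open array lay above every closed array, and the closed values sat near or below the filter. The open minus closed difference was 4.33 (SE 0.19) at E9.5 and 4.60 (SE 0.21) at E8.5, and its size depends on the background at which the closed values lie. Within open tissue all E9.5 arrays lay above all E8.5 arrays, by 0.69 (SE 0.19) in the means. The order was thus open E9.5, open E8.5, closed E9.5 and closed E8.5 tissue, with no overlap between neighbours. The other Gad1 probe set was flatter, at 5.07 ± 0.16 and 5.27 ± 0.16 (SD, n = 3 each) in open tissue at E9.5 and E8.5, against 4.58 ± 0.21 (SD, n = 3) and 4.45 ± 0.19 (SD, n = 2) in closed tissue at the same stages. It put open above closed by 0.49 (SE 0.14) at E9.5 and 0.82 (SE 0.16) at E8.5, without overlap. Between the regions the probe sets thus shared the direction and not the size. Between the stages in open tissue its arrays overlapped, with a difference of -0.21 (SE 0.14), so the order of the open groups was not shared.

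Of 23 listed genes for synthesis, transport and receptors, 10 were tested besides Gad1. At E9.5, 2 were higher and 1 lower in open tissue, and at E8.5, 0 were higher and 1 lower. The list median was -0.10 at E9.5 and 0.00 at E8.5, beside 0.01 and 0.00 over all tested genes. Gad2, the second decarboxylase gene, was not tested, since its mean fell under the filter, with array values from 3.68 to 4.33. Slc32a1, which loads GABA into vesicles, differed by -0.12 (SE 0.09, adjusted p = 0.571) at E9.5 and by -0.05 (SE 0.10, adjusted p = 0.963) at E8.5. The receptor subunit gene Gabrb2 was higher in open tissue at E9.5 (0.97, SE 0.13, adjusted p = 0.000605), with a closed mean of 3.85 below the filter. Gabrg1, another subunit gene, was lower in open tissue at both stages, by -1.36 (SE 0.24, adjusted p = 0.00371) at E9.5 and -3.12 (SE 0.27, adjusted p = 1.68e-05) at E8.5. Its open E9.5 mean of 3.89 lay below the filter.

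Tril (chr6:53815468-53820825) encodes a leucine-rich repeat membrane protein that assists toll-like receptors and is known from glia. Its main probe set read 9.79, 9.42 and 9.49 in open E9.5 tissue and 9.14, 9.13 and 9.41 in open E8.5 tissue. Closed tissue gave 6.07, 6.08 and 6.48 at E9.5 and 4.89 and 5.34 at E8.5. The order of the groups was that of Gad1, and the open groups were parted only by a narrow gap, 9.42 against 9.41. Open arrays lay above closed arrays at both stages, by 3.36 (SE 0.17) at E9.5 and 4.11 (SE 0.19) at E8.5. The second Tril probe set had 7.24, 6.81 and 7.53 in open E9.5 tissue, 6.67, 7.31 and 6.94 in open E8.5 tissue, 5.27, 5.16 and 4.61 in closed E9.5 tissue and 5.04 and 4.77 in closed E8.5 tissue. Here too no open array overlapped a closed one, with differences of 2.18 (SE 0.23) at E9.5 and 2.07 (SE 0.26) at E8.5. Of 12 tested toll-like receptor pathway genes, 1 was higher and 0 lower in open tissue at E9.5, and 1 was higher and 1 lower at E8.5. Rnf170, a ubiquitin ligase known to act on Tlr3, was the member higher at E9.5 (0.44, SE 0.11, adjusted p = 0.0334). Tlr2 (0.81, SE 0.18, adjusted p = 0.0172) was higher and the adaptor gene Myd88 (-0.40, SE 0.10, adjusted p = 0.0412) lower at E8.5. The receptor gene Tlr4 stayed near or below the filter in all 4 groups, with array values from 3.84 to 4.57. Tlr3 differed by -0.02 (SE 0.11, adjusted p = 0.939) at E9.5.

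Mnx1 (chr5:29473823-29478470) encodes a homeodomain factor that fixes motor neuron identity. Its only probe set read 7.25, 7.75 and 8.05 in open E9.5 tissue and 7.46, 8.31 and 7.94 in open E8.5 tissue. Closed tissue gave 5.25, 5.27 and 5.77 at E9.5 and 4.98 and 5.20 at E8.5. The regions did not overlap at either stage, with differences of 2.25 (SE 0.25) at E9.5 and 2.81 (SE 0.28) at E8.5, while the open arrays of the stages overlapped and the closed ones were parted only narrowly, at 5.25 against 5.20. Of 11 other motor neuron genes tested, 0 were higher and 3 lower in open tissue at each stage, with a list median of -0.22 at E9.5 and -0.03 at E8.5. Nkx6-1, a ventral progenitor factor, was lower by -3.33 (SE 0.16, adjusted p = 1.44e-07) at E9.5 and -2.97 (SE 0.18, adjusted p = 8.57e-07) at E8.5. Olig2, which marks motor neuron progenitors, averaged 3.66 ± 0.16 and 3.65 ± 0.09 (SD, n = 3 each) in open tissue at E9.5 and E8.5, against 7.62 ± 0.62 (SD, n = 3) and 7.74 ± 0.63 (SD, n = 2) in closed tissue, the open means being below the filter. Isl1 and Lhx3, factors of postmitotic motor neurons, had no difference past the threshold between regions (Isl1 -0.47, SE 0.15, adjusted p = 0.083 at E9.5; Lhx3 -0.09, SE 0.17, adjusted p = 0.849 at E9.5).

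Mnx1 is also a notochord gene, and notochord came with the tissue. The markers T and Noto were not analysed here. Of 8 tested notochord markers, 5 were higher and 0 lower in open tissue at E8.5, and 0 were higher and 2 lower at E9.5. The notochord list shares Krt8 and Krt18 with the gut endoderm and surface ectoderm lists below, and Foxa2 with the gut endoderm list. The array means of the list ran from 6.96 to 7.36 in open E9.5 tissue, 7.40 to 7.81 in open E8.5 tissue, 7.29 to 7.68 in closed E9.5 tissue and 6.93 to 7.42 in closed E8.5 tissue. Shh was lower in open tissue at E9.5 (-0.74, SE 0.13, adjusted p = 0.00292) and higher there at E8.5 (0.89, SE 0.14, adjusted p = 0.00191). At E8.5 the caveolin gene Cav1 was higher (0.94, SE 0.13, adjusted p = 0.000574). The part of notochord in the Mnx1 differences was not tested.

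Gpm6a (chr8:54779434-55060878) encodes a membrane glycoprotein of growing neurites. Its main probe set read 7.30, 7.29 and 7.87 in open E9.5 tissue and 7.93, 8.05 and 8.16 in open E8.5 tissue. Closed tissue gave 5.95, 6.01 and 6.26 at E9.5 and 5.85 and 5.95 at E8.5. Open lay above closed without overlap, by 1.41 (SE 0.16) at E9.5 and 2.15 (SE 0.18) at E8.5. In open tissue all E9.5 arrays lay below all E8.5 arrays, with a difference of -0.56 (SE 0.16). The lower E9.5 pair, replicates 1 and 2, also had the highest 3-prime over 5-prime signal of the control probe sets, a sign of RNA quality: 2.20 and 2.48 log2, against 1.14 to 1.82 in the other 9 arrays. Without both arrays the difference between the stages in open tissue was -0.18, and the open minus closed difference at E9.5 was 1.80. The second probe set gave 5.06, 4.99 and 6.36 in open E9.5 tissue, with the same replicate on top. It gave 5.65, 6.16 and 6.05 in open E8.5 tissue, 3.96, 4.30 and 4.82 in closed E9.5 tissue and 4.03 and 4.50 in closed E8.5 tissue, so that the stages overlapped and the regions did not.

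Of 4 tested genes of the M6 and proteolipid list, 1 was higher and 1 lower in open tissue at each stage. Gpm6b, the closest paralog, was lower in open tissue, by -0.99 (SE 0.15, adjusted p = 0.00113) at E9.5 and -2.20 (SE 0.17, adjusted p = 5.32e-06) at E8.5. It averaged 5.98 ± 0.21 and 5.37 ± 0.22 (SD, n = 3 each) in open tissue at E9.5 and E8.5, against 6.97 ± 0.15 (SD, n = 3) and 7.57 ± 0.03 (SD, n = 2) in closed tissue. Plp2, which encodes another multipass membrane protein, was higher in open tissue by 0.67 (SE 0.09, adjusted p = 0.000338) at E9.5 and 0.73 (SE 0.10, adjusted p = 0.00046) at E8.5.

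Nefl (chr14:68083863-68089095) encodes the light chain of neurofilaments, the intermediate filaments of axons. It read 7.25, 7.05 and 7.01 in open E9.5 tissue and 8.64, 8.49 and 8.87 in open E8.5 tissue. Closed tissue gave 7.14, 6.61 and 7.0 at E9.5 and 8.78 and 8.59 at E8.5. The regions overlapped at both stages, with open minus closed differences of 0.18 (SE 0.16) at E9.5 and -0.02 (SE 0.18) at E8.5, while the stages did not overlap in either region. The difference between the stages was -1.57 (SE 0.16) in open tissue, which the choice of genes used. In closed tissue, which it did not use, Nefl fell by 1.77 on the log2 scale (SE 0.18, limma adjusted p = 0.000213). The second probe set read 6.35, 6.10 and 6.98 in open E9.5 tissue, 7.56, 7.89 and 7.86 in open E8.5 tissue, 6.65, 6.00 and 6.65 in closed E9.5 tissue and 7.55 and 8.39 in closed E8.5 tissue. It fell by 1.53 in closed tissue (SE 0.31, adjusted p = 0.0441 over 23203 probe sets).

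The other neurofilament chains were also lower at E9.5 in both regions. Nefm, the medium chain, read 6.30, 6.68 and 6.50 in open E9.5 tissue and 7.28, 7.21 and 7.65 in open E8.5 tissue, against 6.11, 5.53 and 5.84 in closed E9.5 tissue and 6.98 and 7.26 in closed E8.5 tissue. It fell by 0.89 in open tissue (SE 0.18, adjusted p = 0.0132) and by 1.29 in closed tissue (SE 0.20, adjusted p = 0.00442). Nefh, the heavy chain, fell by 1.18 in open tissue (SE 0.11, adjusted p = 0.000121) and by 0.69 in closed tissue (SE 0.12, adjusted p = 0.0126), to means of 3.97 and 3.98 at E9.5, below the filter. Ina, alpha-internexin, fell by 1.12 in closed tissue (SE 0.21, adjusted p = 0.0169) and differed by -0.36 in open tissue (SE 0.19, adjusted p = 0.362). Of the 12 tested intermediate filament genes besides Nefl, 0 were higher and 3 lower at E9.5 in closed tissue, and 1 was higher and 2 lower in open tissue. By the same test 0.96% of all genes were called higher and 1.46% lower at E9.5 in closed tissue, and 3.61% higher and 1.42% lower in open tissue.

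Ptprz1 (chr6:22875315-23052916) encodes a receptor tyrosine phosphatase of radial glia and oligodendrocyte precursors. Its main probe set read 5.42, 5.90 and 5.07 in open E9.5 tissue and 8.51, 8.36 and 8.12 in open E8.5 tissue. Closed tissue gave 8.73, 8.42 and 8.47 at E9.5 and 9.71 and 9.37 at E8.5. Open E9.5 tissue stood far below the other groups, and open lay below closed at each stage without overlap, by -3.08 (SE 0.20) at E9.5 and -1.21 (SE 0.23) at E8.5. The difference between the stages was -2.87 (SE 0.20) in open tissue and -1.0 (SE 0.23, limma adjusted p = 0.0417) in closed tissue. A second probe set read 4.65, 4.81 and 4.84 in open E9.5 tissue, 7.21, 7.51 and 6.52 in open E8.5 tissue, 7.46, 6.93 and 7.58 in closed E9.5 tissue and 7.65 and 8.75 in closed E8.5 tissue. The third lay mostly under the filter, at 2.90 ± 0.05 and 3.42 ± 0.20 (SD, n = 3 each) in open tissue at E9.5 and E8.5, against 3.89 ± 0.28 (SD, n = 3) and 4.99 ± 0.08 (SD, n = 2) in closed tissue. All 3 probe sets put the groups in the same order, with closed E8.5 tissue highest and open E9.5 tissue lowest. The middle groups, closed E9.5 and open E8.5 tissue, overlapped in all 3 probe sets.

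Of 12 tested ligands and partners of Ptprz1, 2 were higher and 2 lower in open tissue at each stage, with a list median of -0.11 at E9.5 and 0.08 at E8.5. Ptn, the secreted ligand pleiotrophin, was lower in open tissue by -1.24 (SE 0.16, adjusted p = 0.000384) at E9.5 and -1.28 (SE 0.18, adjusted p = 0.000804) at E8.5. Nrcam, a neural adhesion molecule that binds the receptor, was lower by -3.75 (SE 0.21, adjusted p = 4.15e-07) and -3.48 (SE 0.23, adjusted p = 2.12e-06) at the same stages. Mdk, the ligand midkine, differed by -0.45 (SE 0.23, adjusted p = 0.333) at E9.5 and -0.39 (SE 0.26, adjusted p = 0.614) at E8.5. Cntn1, an axonal partner, differed by -0.20 (SE 0.15, adjusted p = 0.553) at E9.5 and lay near the filter.

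Ret (chr6:118151748-118197744) encodes the receptor tyrosine kinase for the GDNF family of survival factors, which acts with a GFRA co-receptor. Its main probe set read 5.24, 5.19 and 5.75 in open E9.5 tissue and 8.06, 7.73 and 7.41 in open E8.5 tissue. Closed tissue gave 8.71, 8.31 and 8.43 at E9.5 and 8.86 and 9.0 at E8.5. As for Ptprz1, open E9.5 tissue stood far below the other groups. Unlike for Ptprz1, no neighbours in the order of groups overlapped for this Ret probe set. Open lay below closed by -3.09 (SE 0.20) at E9.5 and -1.20 (SE 0.22) at E8.5, and the stages differed by -2.34 (SE 0.20) in open tissue. Without both open E9.5 arrays of high 3-prime signal the difference in open tissue was -1.99 for Ret and -3.26 for Ptprz1. The second Ret probe set spanned less, at 5.26 ± 0.18 and 5.76 ± 0.07 (SD, n = 3 each) in open tissue at E9.5 and E8.5, against 5.98 ± 0.25 (SD, n = 3) and 6.38 ± 0.43 (SD, n = 2) in closed tissue, in the same order of groups.

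Of the GDNF family and Ret signalling genes 11 were tested, and in open tissue 4 were higher and 1 lower at each stage. The co-receptor gene Gfra3 was the lower one, by -2.15 (SE 0.11, adjusted p = 3e-07) at E9.5 and -1.26 (SE 0.13, adjusted p = 5.48e-05) at E8.5. Dusp6, a phosphatase of the MAP kinase pathway that also follows FGF signals, was higher by 2.16 (SE 0.21, adjusted p = 3.88e-05) at E9.5 and 3.38 (SE 0.24, adjusted p = 3.12e-06) at E8.5. The ligand gene Gdnf and the co-receptor gene Gfra1 were not tested, since both fell under the filter, with array values from 3.67 to 4.55 and from 3.88 to 4.57. Of 3 tested markers of intermediate mesoderm and nephric duct, a tissue in which Ret is known to act, 2 were higher and 0 lower in open tissue at E8.5, and 0 passed at E9.5 in either direction.

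**Figure D2:**
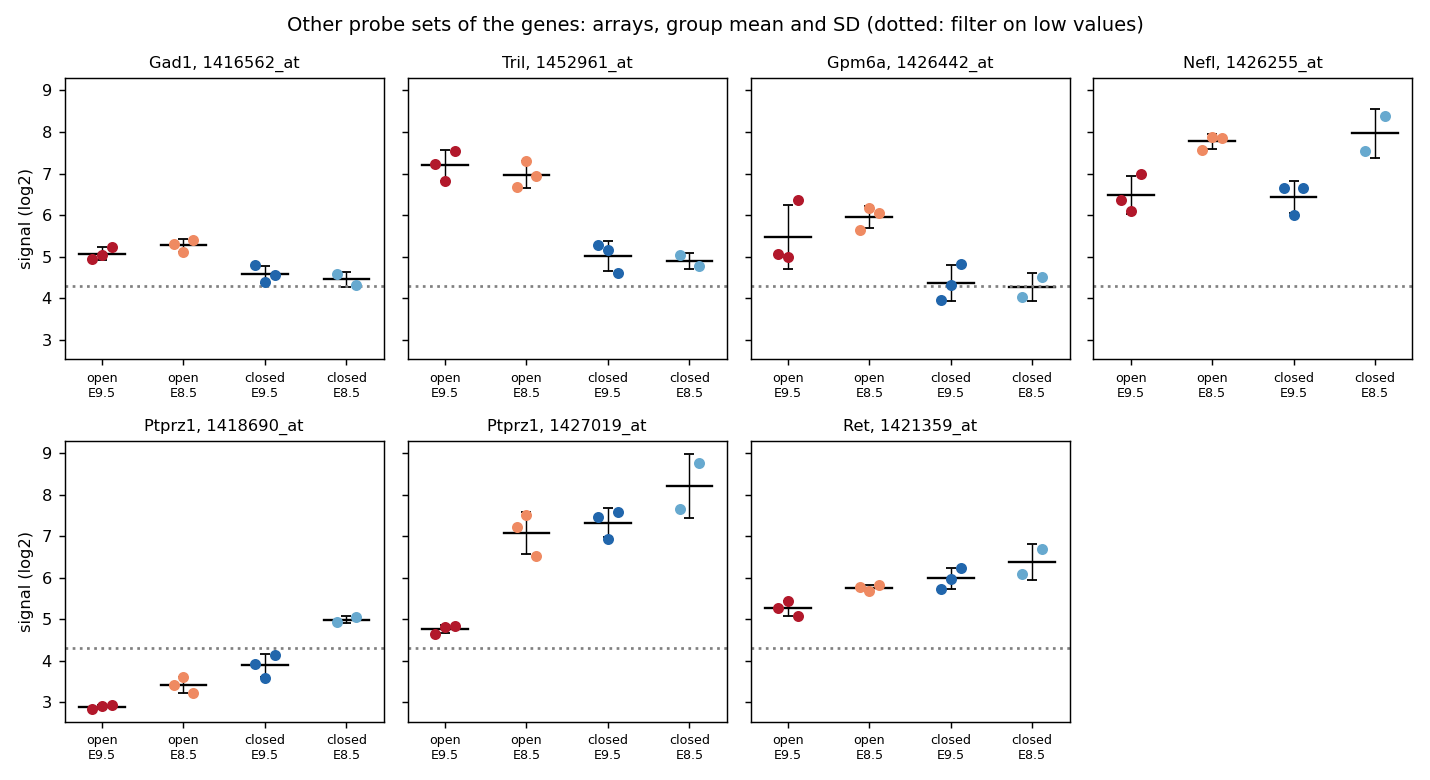
Log2 signal of the 7 other probe sets of the genes, with 1 point per array, lines at group means, bars of 1 SD and a dotted line at the filter value of 4.3. Except for Nefl, whose regions overlap, each probe set repeats the direction of its gene between the regions, and the weakest Ptprz1 probe set lies under the filter in 3 of 4 groups.

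In closed tissue Tril rose by 1.09 (SE 0.19, limma adjusted p = 0.00986), while Nefl and Ptprz1 fell, as given above. Gad1 was called too, at 0.97 (SE 0.21, limma adjusted p = 0.0326), but it passed the filter through open tissue alone. Its closed means, 4.30 at E9.5 and 3.33 at E8.5, lie at and under the filter value, so the difference is one between values near background. The model thus called 4 of the 7 genes, Gad1 included, where 0.96% of all tested genes were called higher and 1.46% lower. Ret differed by -0.44 (SE 0.22, adjusted p = 0.565), Mnx1 by 0.34 (SE 0.28, adjusted p = 0.889) and Gpm6a by 0.18 (SE 0.18, adjusted p = 0.966). Gpm6a was the median gene of the group, beside -0.03 over all tested genes. With the replicate number as a block, Gad1 (adjusted p = 0.0547) and Ptprz1 (adjusted p = 0.0606) missed the threshold. Without both open E9.5 arrays of high 3-prime signal Gad1 missed it too (adjusted p = 0.0529). Without closed E8.5 replicate 1 only Nefl passed, and Gad1 (adjusted p = 0.234), Tril (adjusted p = 0.0965) and Ptprz1 (adjusted p = 0.246) did not. Nefl passed under every alternative run for it, with an adjusted p of at most 0.00665. The second probe sets of Gad1 (0.13, SE 0.16, adjusted p = 1) and Tril (0.11, SE 0.26, adjusted p = 1) and that of Ptprz1 (-0.88, SE 0.34, adjusted p = 0.42) did not pass. With all probe sets of a gene averaged, Tril differed by 0.60 in closed tissue (adjusted p = 0.051).

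**Figure D3:**
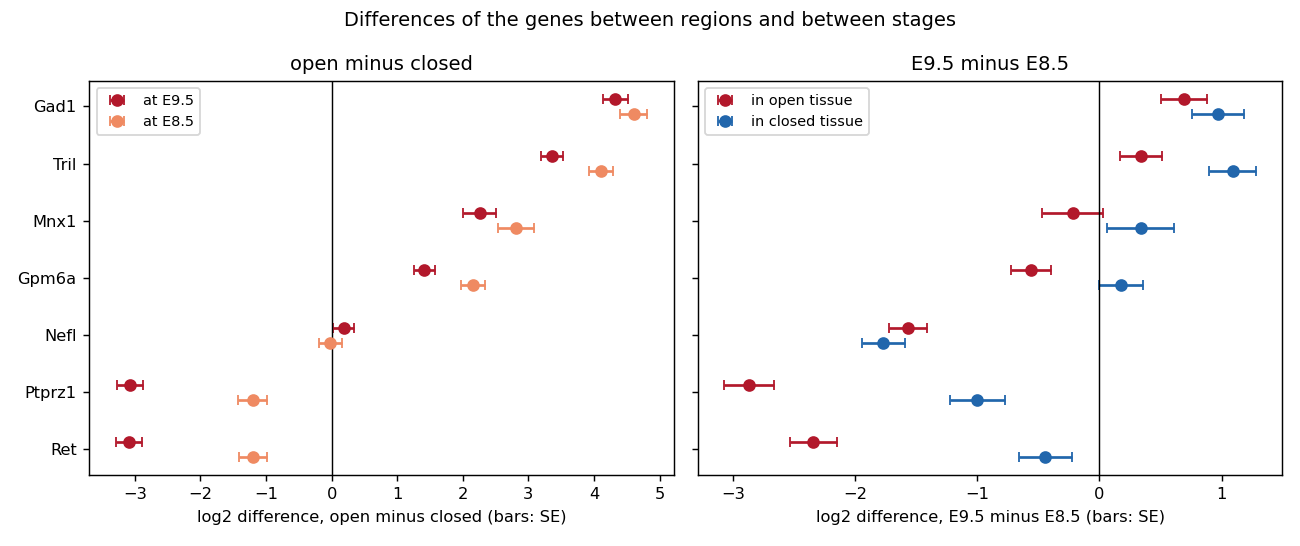
Log2 differences of the 7 genes with bars of 1 SE: open minus closed at E9.5 and E8.5 on the left, and the differences between the stages, E9.5 minus E8.5, by region on the right. Ptprz1 and Ret lie near -3 at E9.5 on the left, and Nefl lies near 0 between the regions while both of its stage differences are below -1.5.

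Of 25 tested pan-neuronal genes, 2 were higher and 3 lower in open tissue at E9.5, where 5.79% and 2.75% of all tested genes were. At E8.5, 1 was higher and 3 lower, beside 3.38% and 3.79% of all tested genes. The list median was -0.06 at both stages. The array means of the list ran from 6.61 to 6.82 in open E9.5 tissue, 6.84 to 6.98 in open E8.5 tissue, 6.60 to 6.72 in closed E9.5 tissue and 6.87 to 7.06 in closed E8.5 tissue. Map2, a dendritic microtubule protein gene, was higher in open tissue at E9.5 (1.71, SE 0.16, adjusted p = 2.96e-05). Stmn2, which regulates microtubules in growing axons, was higher at E8.5 (1.36, SE 0.27, adjusted p = 0.00778). The neuronal tubulin gene Tubb3 differed by 0.13 (SE 0.27, adjusted p = 0.849) at E9.5 and 0.46 (SE 0.30, adjusted p = 0.61) at E8.5. The RNA-binding protein gene Elavl3 was lower at E9.5 (-0.50, SE 0.12, adjusted p = 0.0241). Elavl4 was lower in open tissue by -1.09 (SE 0.15, adjusted p = 0.000449) at E9.5 and -0.71 (SE 0.16, adjusted p = 0.0187) at E8.5. Stmn3 was lower there by -0.52 (SE 0.14, adjusted p = 0.0352) at E9.5 and -1.19 (SE 0.15, adjusted p = 0.000371) at E8.5.

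Between the stages, some pan-neuronal genes were lower at E9.5, as Nefl was. In closed tissue 0 were higher and 8 lower at E9.5, of 25 tested, beside 0.96% and 1.46% of all tested genes. In open tissue 1 was higher and 4 lower, beside 3.61% and 1.42%. Nefm and Ina, given above with the intermediate filament genes, were among the 8, and Nefm was among the 4. Stmn3 fell by 1.56 (SE 0.15, adjusted p = 0.000184) and Stmn2 by 1.42 (SE 0.27, adjusted p = 0.0162) in closed tissue. In open tissue they fell by 0.89 (SE 0.14, adjusted p = 0.00255) and 1.98 (SE 0.24, adjusted p = 0.000537). Map2 went apart, up by 0.81 in open tissue (SE 0.16, adjusted p = 0.0129) and down in closed tissue, where it fell by 0.93 (SE 0.18, adjusted p = 0.0191). Blood markers moved between the stages as well: 3 of 5 were higher at E9.5 in open tissue (median 2.36), and in closed tissue 0 passed (median 1.28, 3 at an unadjusted p under 0.05). Their array means ran from 8.34 to 8.51 in open E9.5 tissue, 5.52 to 6.80 in open E8.5 tissue, 7.51 to 8.35 in closed E9.5 tissue and 6.70 to 6.93 in closed E8.5 tissue. The part of blood in the stage differences of Nefl, Ptprz1, Ret and the pan-neuronal genes was not tested. The list median of the pan-neuronal genes between the stages was -0.13 in closed tissue and -0.12 in open tissue. The count of 8 in closed tissue dropped to 2 when replicate 2 of closed tissue was left out at either stage. Leaving out open E8.5 replicate 3 or closed E9.5 replicate 1 gave a count of 5, and leaving out closed E9.5 replicate 3 or closed E8.5 replicate 1 gave 4.

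**Figure D4:**
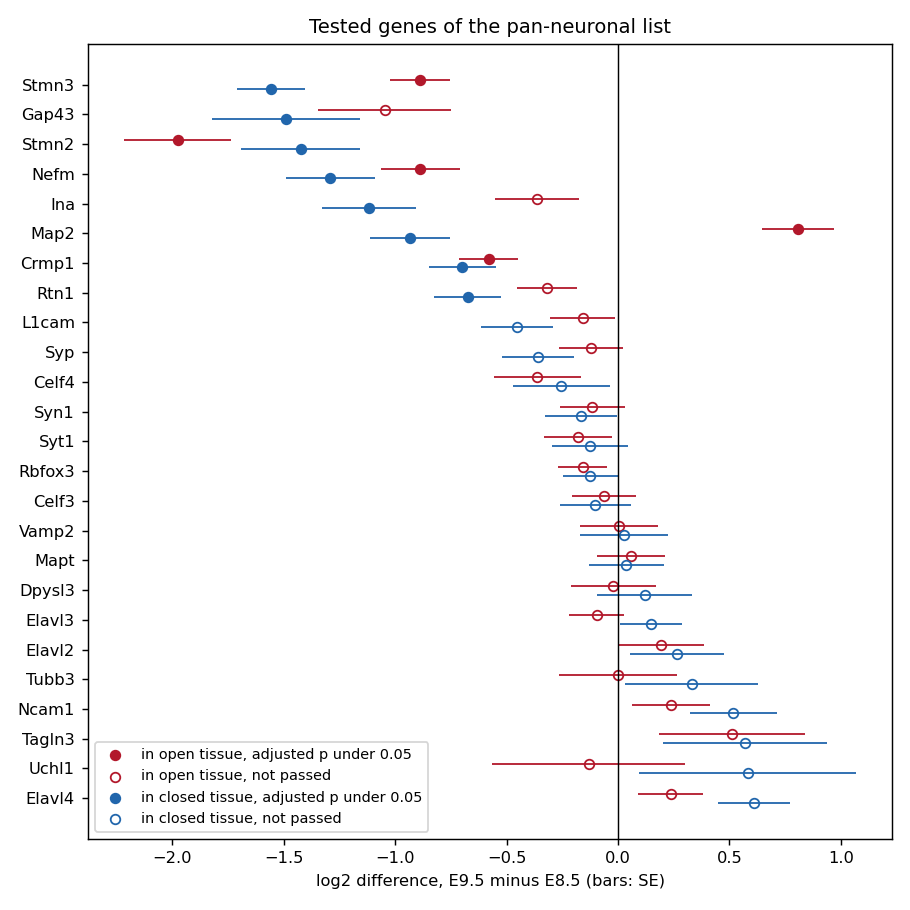
E9.5 minus E8.5 log2 differences of the 25 tested pan-neuronal genes in open and closed tissue, with bars of 1 SE and filled points where the adjusted p was under 0.05. Closed tissue has 8 filled points, all below 0, and open tissue has 5, of which that of Map2 lies above 0.

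Glial markers gave 0 higher and 1 lower in open tissue at E9.5 and 1 higher and 2 lower at E8.5, of 18 tested. Olig1, a factor of the oligodendrocyte lineage, was lower by -2.59 (SE 0.22, adjusted p = 1.27e-05) at E9.5 and -2.86 (SE 0.24, adjusted p = 1.41e-05) at E8.5. Its open means were 3.75 at both stages, below the filter, so the sizes depend on background. Mbp was the glial marker higher in open tissue at E8.5 (0.76, SE 0.13, limma adjusted p = 0.0028). At E9.5 Mbp differed by 0.07 (SE 0.11, limma adjusted p = 0.802). REST is a repressor that holds many neuronal genes silent outside neurons. Of 12 tested genes of its complex, 0 passed the limma test in any of the 4 comparisons. At an unadjusted p under 0.05, 1 of them stood out between the regions at E9.5, 0 at E8.5, 2 between the stages in open tissue and 0 in closed tissue. Rest itself read 7.22, 7.19 and 8.69 in open E9.5 tissue, 6.92, 8.74 and 7.06 in open E8.5 tissue, 7.44, 7.02 and 8.16 in closed E9.5 tissue and 6.80 and 8.66 in closed E8.5 tissue. It split the arrays within every group, and its open minus closed difference of 0.16 at E9.5 had an SE of 0.60.

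The regions themselves differed in progenitor markers. Of 17 tested caudal progenitor genes, 14 were higher and 0 lower in open tissue at E9.5, and 13 were higher and 0 lower at E8.5, with medians of 2.02 and 2.29. Of 12 neural progenitor genes, 0 were higher and 9 lower at E9.5, and 0 higher and 8 lower at E8.5. Presomitic and somite markers were also higher in part, 3 of 10 at each stage (1 was lower at E9.5), with array means of 6.16 to 6.60 in open E9.5 tissue and 6.54 to 6.68 in open E8.5 tissue. In closed tissue they ran from 5.77 to 5.80 at E9.5 and from 5.77 to 6.04 at E8.5. Neural crest markers were lower in 4 of 9 at each stage, and 1, Ngfr, was higher at E8.5 (0.99, SE 0.19, limma adjusted p = 0.00564). Their array means were 5.50 to 5.80 in open E9.5 tissue and 5.71 to 5.85 in open E8.5 tissue. The closed means were 6.86 to 7.03 at E9.5 and 6.51 to 6.98 at E8.5. Of 9 surface ectoderm markers 2 were higher and 1 lower at E9.5 and 4 higher and 1 lower at E8.5, and of 12 gut endoderm markers 2 were higher and 2 lower at E9.5 and 3 higher and 1 lower at E8.5. The surface ectoderm and gut endoderm lists both hold Epcam, Krt8 and Krt18, so their counts can hold the same genes. Of 5 blood and 4 endothelial markers, 0 were higher, and 0 blood and 1 endothelial marker were lower at each stage. The part of these tissues in the values of the 7 genes was not tested.

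For each gene the 3 genes of nearest pattern were found over the 11 arrays, by the root mean square difference of log2 values after each gene was centred on its mean. They are a description, since the arrays share their libraries. The antisense gene Evx1os (0.33), the caudal homeobox gene Evx1 (0.39) and the Wnt agonist gene Rspo3 (0.43) were nearest to Gad1. Evx1 averaged 10.32 and 10.12 in open tissue at E9.5 and E8.5, against 6.18 and 5.31 in closed tissue. Evx1os is the antisense neighbour of Evx1. Nearest to Tril were Rspo3 (0.30), Fgf8 (0.43), which encodes the caudal growth factor, and Evx1os (0.43). The caudal homeobox genes Cdx4 (0.30) and Cdx2 (0.36) and the gene Pof1b (0.37) were nearest to Mnx1. Cdx4 averaged 10.69 and 10.63 in open tissue at E9.5 and E8.5, against 8.67 and 7.78 in closed tissue. Gpm6a lay nearest to Ripk3 (0.21), a kinase gene of programmed necrosis, and to Atp9a and Smagp (0.22 each).

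The genes that were lower at E9.5 had other neighbours. Lrp11 (0.28), Tmem45a (0.31) and Fah (0.33), the last an enzyme of tyrosine breakdown, were nearest to Nefl. Lrp11 averaged 7.23 and 8.36 in open tissue at E9.5 and E8.5, against 6.45 and 8.29 in closed tissue. Ret lay nearest to the activin antagonist gene Fst (0.44), the G protein subunit gene Gng4 (0.50) and the secreted factor gene Ndnf (0.50). Ptprz1 lay nearest to Trmt9b (0.56), Gng4 (0.60) and Fst (0.66), and so shared 2 of 3 neighbours with Ret at larger distances. Fst averaged 4.80 and 6.46 in open tissue at E9.5 and E8.5, against 7.91 and 7.73 in closed tissue.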

How the data were processed

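The 7 genes, the 20 lists around them and the choices of test were made with earlier results of these data known. The deposited values are log2 signal of 45101 probe sets on 11 arrays, used as deposited. The submitters' processing notes name MAS5 without a version or role; background correction, summary and normalization of the deposited log2 values are not given in the sources used here. Values ran from 2.37 to 14.72. Array medians ran from 4.80 to 4.90.

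Probe sets were named from the platform annotation: 34945 had 1 gene symbol, 932 several and 9160 none (64 were controls), and 34741 were matched to RefSeq by gene ID. Each gene took its probe set of highest mean. Genes with a mean of at least 4.3, the 40th percentile, were tested, 13338 in all. The 4 group means were fitted in 1 model with limma 3.58.1 in R 4.3.3 (intensity trend, 7 residual degrees of freedom), and p-values were adjusted by Benjamini-Hochberg over all tested genes. The number of arrays limits the precision.

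Named were the 7 genes with all their probe sets, 20 genes set as anchors, examples from the gene of smallest p per list and direction between the regions, and the 3 nearest genes of each member. Values of whole marker lists are given as counts and array means. Arrays of the same number from open and closed tissue of 1 stage deviated together. Their correlations across genes, which are not independent, were 0.308, 0.341 and 0.687 for the E9.5 pairs and 0.576 and 0.697 for the E8.5 pairs. Some arrays of unlike number did so too, and others deviated in opposite directions. Open E9.5 replicate 2 and closed E9.5 replicate 1 correlated at 0.317. Closed E8.5 replicate 2 and open E9.5 replicate 3 correlated at 0.7565. With 2 closed E8.5 arrays, their deviations are opposite by construction. The correlations therefore do not settle whether the numbers pair regions within a stage. The labels do not say what the numbers share. Litter pools were taken as biological replicates, per the labels. Alternatives changed normalization, filter, probe set choice, variance model, array weights, RNA quality terms, block and arrays left out. The random block within a stage was added after the data were seen.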

Additional observations from a re-analysis of the deposited data

Results flagged for a closer look

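For 6 genes named from the lists, the change between the stages differed between the regions by the test of that difference itself (limma, adjusted over all genes, of which 167 passed). The values are the change in open tissue minus that in closed tissue, on the log2 scale. Map2, a microtubule protein gene of dendrites, had 1.74 (SE 0.24, adjusted p = 0.00407), with 6.47 and 5.67 in open tissue at E9.5 and E8.5, against 4.76 and 5.70 in closed tissue. The GABA receptor subunit gene Gabrg1 had 1.76 (SE 0.37, adjusted p = 0.045), with 3.89 and 4.81 in open tissue at E9.5 and E8.5, against 5.25 and 7.93 in closed tissue. The open E9.5 mean lies below the filter of 4.3, so the size of this difference depends on background. Gpm6b, the paralog of Gpm6a, had 1.21 (SE 0.22, adjusted p = 0.0239). The co-receptor gene Gfra3 had -0.89 (SE 0.17, adjusted p = 0.0309), with 6.51 and 6.66 in open tissue at E9.5 and E8.5, against 8.66 and 7.92 in closed tissue. Shh, a signal of notochord and floor plate, had -1.63 (SE 0.19, adjusted p = 0.00168). The endothelial factor gene Sox18 had 0.71 (SE 0.15, adjusted p = 0.0457). These differences were noticed on the same data.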

How the results depend on the processing

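With groups of 2 or 3 arrays, counts of called genes depended on the setting. Of the 7 genes, 0 of those called between the stages in closed tissue changed sign under an alternative. The signs of other called genes were not compared across the settings. Among small differences without a call, that of Mnx1 between the stages in open tissue (-0.22) was 0.10 with the 3-prime over 5-prime covariate and 0.14 without both open E9.5 arrays of high 3-prime signal. Nefl between the regions at E8.5 (-0.02) lay between 0.01 and 0.08 under 5 alternatives. Called genes numbered 1139 between the regions at E9.5, 957 between them at E8.5, 670 between the stages in open tissue, 323 between the stages in closed tissue, and 167 for the interaction. Array weights gave 3424 at E9.5, 4301 in open tissue and 215 in closed tissue. The 3-prime over 5-prime covariate gave 1764 at E9.5, 1519 at E8.5, 1006 in open tissue, 730 in closed tissue and 297 for the interaction. A random replicate block within stage, chosen after seeing the data, gave 2333 at E9.5, 1516 at E8.5 and 492 for the interaction. Without both open E9.5 arrays of high 3-prime signal there were 603 at E9.5, 182 in open tissue and 72 for the interaction. A limit of 1 on the log2 difference gave 454 at E9.5, 484 at E8.5, 219 in open tissue and 161 in closed tissue. A fit of only the groups compared gave 150 in closed tissue. Of the 7 genes, 4 passed between the stages in closed tissue, where 0.96% of all tested genes were called higher and 1.46% lower. With array weights, with the replicate block of either kind, with every probe set on its own or with only the groups compared, 2 did. Over the alternatives the adjusted p of this change ran from 0.00952 to 0.234 for Gad1, from 0.000955 to 0.246 for Ptprz1 and from 0.00176 to 0.0965 for Tril. The 8 pan-neuronal genes lower at E9.5 in closed tissue became 5 with arrays centred on their median, with array weights or with only the groups compared. Leaving out 1 array at a time gave 792 to 1533 genes at E9.5, 654 to 1097 at E8.5, 367 to 1262 in open tissue, 174 to 375 in closed tissue and 84 to 239 for the interaction. The same settings gave 1 to 4 of the 7 genes and 2 to 8 pan-neuronal genes. A group reduced to 1 array borrowed its spread from the others. The count in open tissue was lowest without open E8.5 replicate 1 and highest without open E9.5 replicate 3. That last setting kept only the open E9.5 arrays of high 3-prime signal, at 2.20 and 2.48 log2. The count in closed tissue was lowest without closed E9.5 replicate 2. The cause was not tested. Averaging all probe sets of a gene set the open minus closed difference of Gad1 at 2.41 at E9.5 and 2.71 at E8.5, and that of Ret at -1.91 at E9.5. It set the stage difference in open tissue at 0.24 for Gad1, -1.42 for Ret and -1.90 for Ptprz1. Signal near background limits Gad1 in closed tissue and the weakest Ptprz1 probe set.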
